A study of Mus musculus with 3 samples.

Results

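The genes described here are 9 that encode receptors for the cytokines and growth factors of blood stem and progenitor cells, out of 21883 protein-coding genes on the named nuclear chromosomes. They were taken by name, and all 9 were found in the gene table: Kit, Tek, Flt3, Csf1r, Csf3r, Csf2rb, Il7r, Epor and Il6ra. The measurement is the position of the retinoid X receptor RXRA on chromatin, mapped by CUT&RUN, where a nuclease tethered through an antibody cuts around the bound protein and the freed fragments are read. 1 HSC library was made from 10000 haematopoietic stem cells (Lin-cKit+Sca1+CD48-CD150+), and 2 MPP libraries were made from 50000 multipotent progenitors each (Lin-cKit+Sca1+CD150-). All 3 came from bone marrow of C57BL/6 mice of about 10 months, with 3 or 4 animals pooled, and all cells had been exposed to Bexarotene, an RXR agonist, at 1 mM for 1 h per the labels. The genotype field reads VavCre+; WT, where Vav drives Cre in blood cells, whereas the growth protocol names the mice Rxrabfl/fl (WT). These fields differ, and the labels do not settle whether the sorted cells carried both Cre and floxed alleles. Both fields and the drug treatment read the same for every library. No untreated, knockout or control-antibody library was used here. Peak lists hold no expression, so the identity of the sorted cells was not checked against marker genes.

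Cytokine receptors carry survival, division and lineage signals into a blood cell. Kit, the receptor for stem cell factor, and Flt3, the receptor for FLT3 ligand, are receptor tyrosine kinases that cross the membrane and phosphorylate themselves once a ligand pairs them. Tek, also called TIE2, is the kinase receptor for angiopoietins and is known from stem cells and endothelium. Csf1r, the receptor for macrophage colony-stimulating factor, is a kinase of the same family as Kit and Flt3. Csf3r, Csf2rb, Il7r, Epor and Il6ra encode chains of cytokine receptors that have no kinase of their own and whose complexes signal through JAK kinases and STAT factors. Kit, Tek and Flt3 are grouped here as stem and multipotent receptors, and the other 6 as lineage-primed receptors. The classes are textbook background, were not checked in these data and were varied for Flt3 alone.

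No receptor gene had an RXRA peak at a gene end in the HSC library, whereas Kit, Flt3, Csf2rb and Il6ra had one in both MPP libraries and Il7r in MPP replicate 2 alone. A peak was placed by its summit as gene-end (within 1 kb of either end of the gene), internal (elsewhere in the gene) or distal (outside it, within 50 kb). The members with a gene-end peak thus numbered 0 of 9 in HSC, with 4 and 5 of 9 in MPP replicates 1 and 2. Over all protein-coding genes the same rule called 7.97% in the HSC library and 40% and 35.1% in the MPP libraries, so at 7.97% a count of 0 among 9 genes is near the background. The same 4 genes in both MPP libraries stand beside 28% of all genes. With 1 HSC library no difference between HSC and MPP has a replicate check, and no p-value is given.

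The transcription starts of 7 members, all but Csf1r and Csf2rb, are given by RefSeq promoters of the build GRCm38.p6. The 250 bases before the start are printed for the 4 genes whose start lay under a peak at a gene end, 5′ to 3′ on the gene's strand. They lie at chr5:75574737-75574986 (plus strand) for Kit, chr5:147400490-147400739 (minus strand) for Flt3, chr3:89913197-89913446 (minus strand) for Il6ra and chr15:9529877-9530126 (minus strand) for Il7r. Capitals mark matches on either strand to any of the motifs searched. These were the nuclear receptor half-site AGGTCA and its variant AGTTCA, the ETS core GGAAGT, the RUNX core TGTGGT, the GATA core AGATAA, the E-box CACGTG and the CCAAT box. These windows are shown because MPP peaks lay over them, and the window of Kit, all in lower case, held no match.
Kit: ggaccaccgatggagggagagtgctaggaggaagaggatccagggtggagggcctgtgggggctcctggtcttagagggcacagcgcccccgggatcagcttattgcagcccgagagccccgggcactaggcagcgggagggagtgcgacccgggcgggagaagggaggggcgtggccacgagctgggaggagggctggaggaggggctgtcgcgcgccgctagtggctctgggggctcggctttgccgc
Flt3: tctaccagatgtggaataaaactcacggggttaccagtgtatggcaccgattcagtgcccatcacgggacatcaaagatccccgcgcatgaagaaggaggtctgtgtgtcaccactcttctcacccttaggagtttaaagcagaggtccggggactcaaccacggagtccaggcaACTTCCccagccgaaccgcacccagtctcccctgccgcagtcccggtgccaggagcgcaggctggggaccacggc
Il6ra: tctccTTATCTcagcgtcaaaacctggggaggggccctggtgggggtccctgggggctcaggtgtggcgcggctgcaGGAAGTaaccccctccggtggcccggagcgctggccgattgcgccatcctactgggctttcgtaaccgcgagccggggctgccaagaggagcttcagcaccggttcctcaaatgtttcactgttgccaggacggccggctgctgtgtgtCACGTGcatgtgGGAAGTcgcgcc
Il7r: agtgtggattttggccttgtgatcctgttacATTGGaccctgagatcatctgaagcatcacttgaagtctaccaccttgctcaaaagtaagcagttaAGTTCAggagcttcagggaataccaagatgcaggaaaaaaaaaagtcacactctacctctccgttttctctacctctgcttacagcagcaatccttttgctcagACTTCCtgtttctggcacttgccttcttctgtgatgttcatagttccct

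The half-site AGGTCA, bound by RXR and its partners, was in 0 of the 7 member promoters and in 12.6% of 17491 RefSeq promoters of the same length. Il7r held the variant AGTTCA, which 10.9% of promoters held. Direct repeats of AGGTCA with a spacer of 1 base, as RXR dimers bind, were in 0 of the 7 and in 8 of all promoters. With a spacer of 4 bases the repeats were in 0 of either. GGAAGT was in the promoters of Flt3, Il7r and Il6ra, which is 3 of 7 against 20.5% of promoters. Il6ra had GGAAGT at 2 places, beside CACGTG, found in 6.64% of promoters, and AGATAA, found in 9.12%. Epor, whose sequence is not printed since no peak reached it, held TGTGGT, found in 12.5% of promoters, and AGATAA. The CCAAT box was in Il7r and in 36.3% of promoters, and the promoters of Kit, Tek and Csf3r held none of the motifs. The GC content of the printed windows was 70.8% for Kit, 65.2% for Il6ra, 59.2% for Flt3 and 44.0% for Il7r, against a median of 55.2%. These matches describe letters in a window and are not binding sites. Peaks of any kind overlapped the window of 0 of the 7 members in HSC, against 7.12% of all promoters. In MPP replicate 1 they overlapped 4 (Kit, Flt3, Csf3r and Il6ra), against 33%, and in MPP replicate 2 they overlapped 4 (Kit, Flt3, Il7r and Il6ra), against 32.2%.

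**Figure D1:**
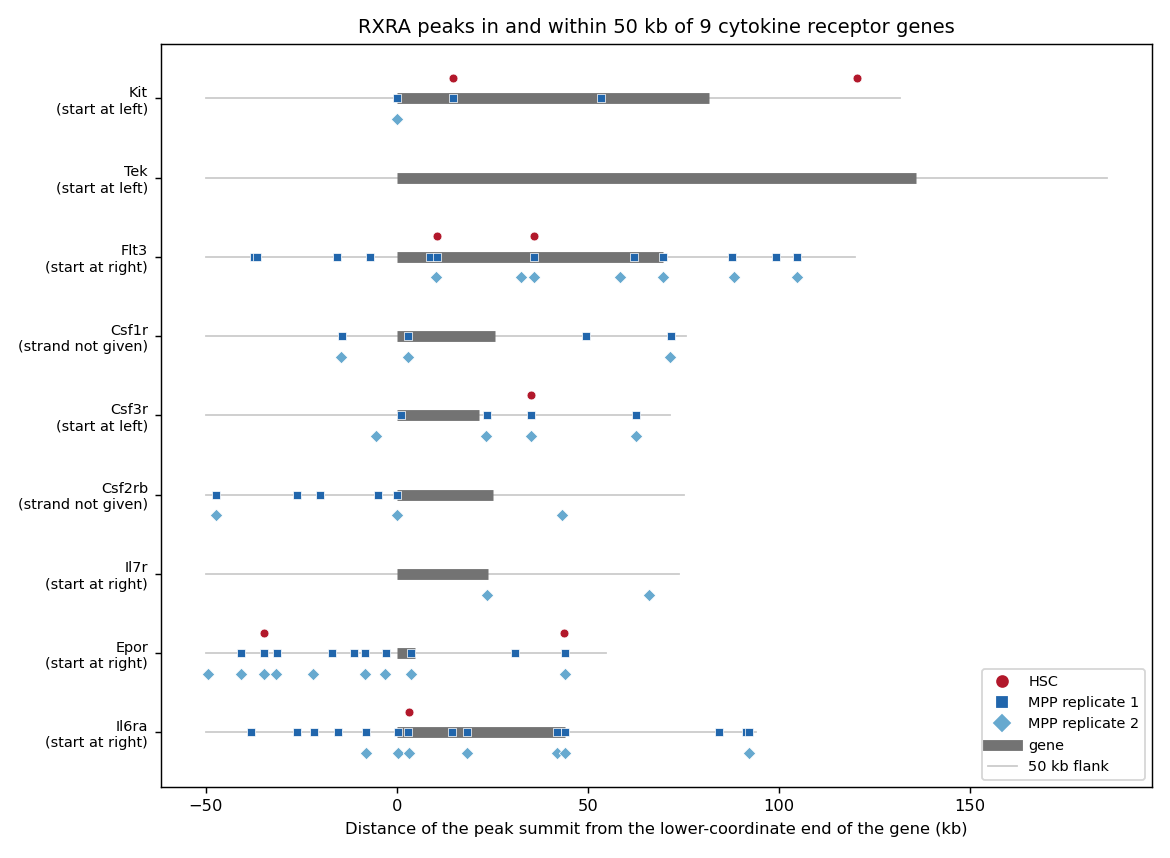
Position of every RXRA peak summit in and within 50 kb of the 9 receptor genes, in kb from the lower-coordinate end of each gene, with a row per gene and a symbol per library (HSC above, MPP replicate 1 on the line, MPP replicate 2 below). Tek has no symbol, and no HSC symbol lies within 1 kb of a gene end.

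Depth differed between the libraries and bears on every count. The HSC list holds 4047 peaks, and those of MPP replicates 1 and 2 hold 29848 and 19570. The lowest local background of any peak, recovered from its fold and p and taken to stand for depth, was 0.604 fragments in HSC, against 2.87 and 1.08 in MPP replicates 1 and 2, which are 4.75 and 1.79 times the HSC value. The smallest pileup that was called in HSC was 5 fragments, and in MPP replicates 1 and 2 it was 10 and 6. Fold values are the authors' fold enrichments at the summit. For some peaks the rank is also given, the percentile by fold among the peaks of the same library. Fold adds 1 to pileup and to background, so folds of libraries that differ in depth are not on one scale. Intervals after a pileup are exact Poisson intervals (95%) and cover counting error only.

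Kit (chromosome 5, 75574987 to 75656722, plus strand, 81.7 kb) was marked at its start in both MPP libraries and at other places in HSC. The start peak had a fold of 6.68 in MPP replicate 1, with 35 fragments (24.4 to 48.7) and a rank of 90.8%. In MPP replicate 2 its fold was 5.12, with 14 fragments (7.65 to 23.5) and a rank of 34.9%. The summits lay 89 and 56 bases upstream of the start, inside the printed window, and the peaks overlapped but ranked differently. In HSC an internal peak 14.7 kb into the gene, from 75589592 to 75589865, had a fold of 5.86 with 10 fragments (4.80 to 18.4). It overlapped a peak of MPP replicate 1 with a fold of 5.38 and none of MPP replicate 2. A further HSC peak, 38.6 kb beyond the far end from 75695204 to 75695476, had a fold of 6.24 with 9 fragments (4.12 to 17.1). It was the only one of the 8 HSC peaks at receptor genes without a counterpart in either MPP library. Kit, as cKit, is also a marker by which all 3 libraries were sorted.

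Flt3 (chromosome 5, 147330741 to 147400489, minus strand, 69.7 kb) had the receptor start peak of highest fold in each MPP library. That peak had a fold of 8.45 in MPP replicate 1, with 35 fragments (24.4 to 48.7) and a rank of 97.7%. It had a fold of 7.27 in MPP replicate 2, with 18 fragments (10.7 to 28.4) and a rank of 79.9%. The summits lay 96 and 212 bases downstream of the start. Inside the gene, 2 sites were peaks in all 3 libraries. At the site 10.4 kb from the far end, the HSC peak from 147341009 to 147341318 had a fold of 6.57 with 11 fragments (5.49 to 19.7), and the MPP peaks had folds of 7.44 and 8.66. At the site 34.0 kb from the start, the HSC peak from 147366384 to 147366655 had a fold of 4.79 with 8 fragments (3.45 to 15.8), and the MPP peaks had folds of 6.24 and 6.63. The first of these ranked at 79.4% in HSC and at 94.9% and 91.6% in the MPP libraries, and the second at 23.4% in HSC and at 87.8% and 70.2%. All 7 distal peaks of MPP replicate 1 and both of MPP replicate 2 lay nearer to Cdx2, Urad or Pan3 than to Flt3.

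Tek (chromosome 4, 94739086 to 94874976, plus strand) was the longest member, at 136 kb, and had 0 peaks in or within 50 kb of the gene in all 3 libraries. It was the only member with none. Over all genes, 33.8% had a peak of any class in the HSC library, and 78.7% and 72.7% had one in MPP replicates 1 and 2. Binding below the calling limit of each library was not detectable.

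Il6ra (chromosome 3, 89869324 to 89913196, minus strand, 43.9 kb) encodes the ligand-binding chain for interleukin 6. With the 50 kb flanks counted, MPP replicate 1 held 14 peaks, the highest count of any member there. MPP replicate 2 held 7, and the HSC library 1, which was internal. Of the MPP peaks, 8 of the 14 and 2 of the 7 were distal, and each lay nearer to She or Atp8b2 than to Il6ra. Il6ra thus had 6 gene-end and internal peaks in the first MPP library and 5 in the second. It was the only member marked at both ends in the MPP libraries. The start peak had a fold of 6.63 in MPP replicate 1, with 34 fragments (23.5 to 47.5), and of 6.70 in MPP replicate 2, with 21 fragments (13 to 32.1). Its summits lay 41 and 48 bases upstream of the start. The peak at the far end had folds of 6.28 and 5.03. An internal site 3.06 kb from the far end was a peak in all 3 libraries, with a fold of 5.50 in HSC from 8 fragments (3.45 to 15.8). Its folds were 5.75 in MPP replicate 1 and 6.76 in MPP replicate 2. An internal site 18.4 kb from the far end, with higher folds of 6.07 and 6.92 in the MPP libraries, had no HSC peak.

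Csf2rb (chromosome 15, 78325800 to 78351001), the signalling chain shared by the receptors for GM-CSF, interleukin 3 and interleukin 5, was marked at its lower-coordinate end in both MPP libraries. The peak had a fold of 4.996 in MPP replicate 1, with 23 fragments (14.6 to 34.5), and of 6.01 in MPP replicate 2, with 15 fragments (8.40 to 24.7). Its ranks were 68.3% and 58.8%. The tables used here give no strand for this gene or for Csf1r, so start and far end were not told apart. Of its distal peaks, 3 of 4 in MPP replicate 1 and 1 of 2 in MPP replicate 2 lay nearest to its neighbour Csf2rb2, a related interleukin 3 receptor chain. Csf2rb had 0 peaks in HSC.

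Il7r (chromosome 15, 9506159 to 9529941, minus strand), the interleukin 7 receptor chain of lymphoid progenitors, had 0 peaks in HSC and in MPP replicate 1. MPP replicate 2 held a start peak with a fold of 4.81 from 9 fragments (4.12 to 17.1), at a rank of 26.3%, and a distal peak with the same values nearest to Spef2. The mark at Il7r thus rests on 1 of 2 MPP libraries, the shallower.

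Csf1r (chromosome 18, 61105572 to 61131139) had no gene-end peak in any library and 1 internal site in both MPP libraries, about 3 kb from its lower-coordinate end. The peak had a fold of 5.05 in MPP replicate 1, with 24 fragments (15.4 to 35.7), and of 7.04 in MPP replicate 2, with 20 fragments (12.2 to 30.9), ranks of 69.1% and 76.6%. The distal peaks around it lay nearest to Pdgfrb, Hmgxb3 or LOC108168367. Csf1r had 0 peaks in HSC.

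Csf3r (chromosome 4, 126023441 to 126044975, plus strand), the receptor for granulocyte colony-stimulating factor, had no gene-end peak by the summit rule. In MPP replicate 1 a peak with a fold of 3.89 from 17 fragments (9.90 to 27.2) lay 1.16 kb inside the gene, and its summit was 58 bases upstream of the start that the RefSeq promoter gives, which is not the outermost start of the gene. The distal site of highest HSC fold among all members, 13.4 kb beyond Csf3r, lay inside Oscp1. Its fold was 6.86 in HSC, from 10 fragments (4.80 to 18.4), while MPP replicates 1 and 2 had 6.81 and 5.39. A peak at the end of Mrps15, a mitochondrial ribosomal protein gene, was found in both MPP libraries within 2 kb of Csf3r.

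Epor (chromosome 9, 21958897 to 21963576, minus strand), the erythropoietin receptor of red cell precursors, is 4.68 kb long, the shortest member. It had 2 peaks in HSC, and 10 and 9 in MPP replicates 1 and 2, of which 2, 9 and 8 were distal and each lay nearer to another gene than to Epor. Its own peak was internal in both MPP libraries, 1.02 and 1.05 kb from the start and so just outside the gene-end window. It was weak, with folds of 3.37 and 4.63 and ranks of 12.0% and 20.3%. The farthest summit inside the gene-end window was at Il6ra, 0.387 kb from the gene end. Both HSC peaks near Epor had counterparts in both MPP libraries. That at the ends of Ccdc151 and Prkcsh had a fold of 6.24 in HSC, with 4.39 and 6.86 in MPP replicates 1 and 2, and that nearest to Tmem205 had 5.75 in HSC, with 5.33 and 4.94.

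**Figure D2:**
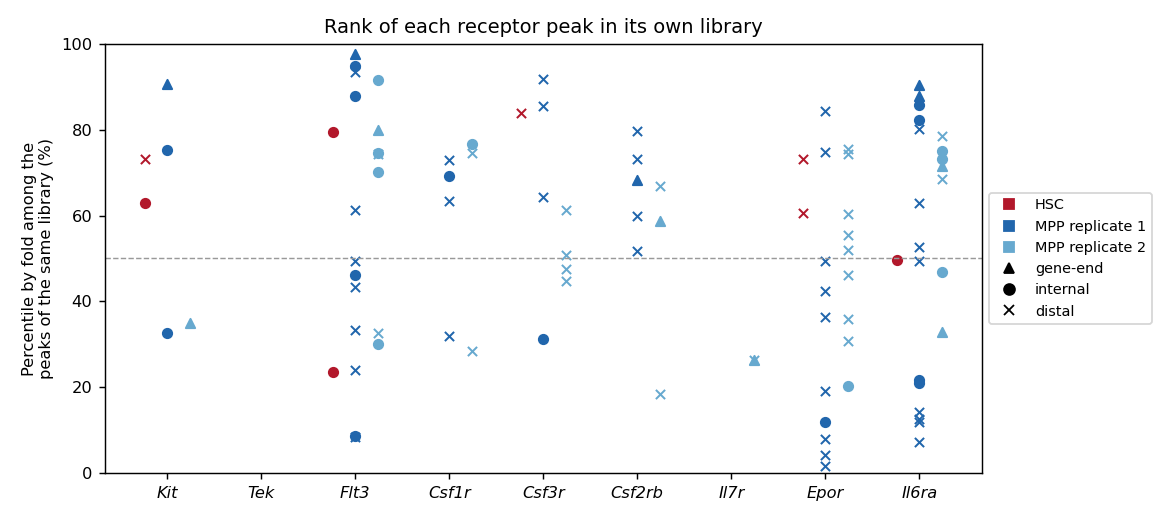
Rank of each receptor peak in its own library, as the percentile of its fold among that library's peaks (vertical axis), by gene, with colour for the library and symbol for the position of the peak. The dashed line is the library median, and the start peaks of Kit, Flt3 and Il6ra in MPP replicate 1 sit at 90.8%, 97.7% and 90.5%.

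Internal peaks were found in 3 of 9 members in HSC (Kit, Flt3 and Il6ra), and in 6 and 4 members of 9 in MPP replicates 1 and 2, where 4.97%, 27.1% and 19.2% of all genes had one. Members were longer than genes in general, with a median of 25.6 kb against 17.2 kb, and a longer gene has more room for an internal peak. Per 100 kb of gene, gene-end and internal peaks together numbered 0.926 over the members in HSC, and 4.17 and 3.47 in MPP replicates 1 and 2. Over all genes they numbered 0.287, 2.06 and 1.45. Distal peaks were found for 3, 6 and 7 members, beside 25.6%, 71% and 63.1% of all genes. Of the distal peaks, 3 of 4 in HSC, with 33 of 34 and 20 of 21 in MPP replicates 1 and 2, lay nearest to a gene other than the receptor.

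**Figure D3:**
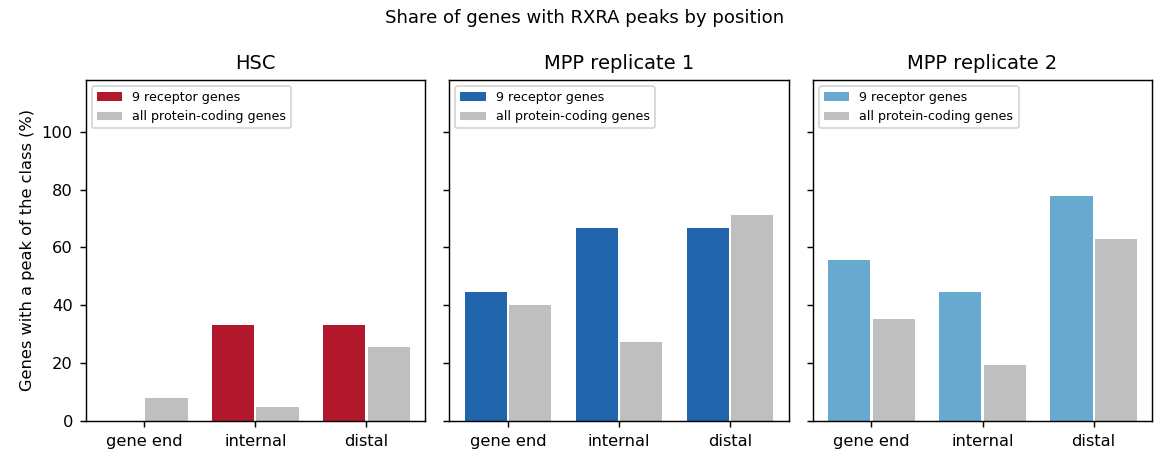
Percent of the 9 receptor genes (coloured bars) and of all 21883 protein-coding genes (grey bars) with a gene-end, internal or distal RXRA peak, by library. The HSC gene-end bar of the receptors is at 0%. The internal bar stands at 33.3%, or 3 of 9 genes (exact binomial interval 7.49 to 70.1), against 4.97%. Bars are not adjusted for gene length.

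With the 50 kb flanks counted, stem and multipotent receptors had more HSC peaks per gene than lineage-primed receptors, and fewer MPP peaks per gene. The counts are small, and none of the 3 libraries kept this order under every setting tried. In both MPP libraries the order of the means turned when only gene-end and internal peaks were counted per gene, through the peaks of Flt3. In HSC the 3 stem and multipotent genes had 4 peaks and the 6 lineage-primed genes had 4, medians of 2 and 0.5 per gene. In MPP replicate 1 they had 15 and 37 peaks, medians of 3 and 4.5. In MPP replicate 2 they had 8 and 28, medians of 1 and 3.5. The median over all genes was 0, 3 and 2. The ratio of mean peaks per gene was 2.0 in HSC, and 0.811 and 0.571 in MPP replicates 1 and 2. In HSC it was 1.17 with Flt3 counted as lineage-primed and 1.0, with no difference left, at a flank of 100 kb. In MPP replicate 1 it turned to 1.1 at a flank of 20 kb and to 3.33 with the list held to the 4047 peaks of highest fold, the length of the HSC list. In MPP replicate 2 held to that length, the 2 receptor peaks left were both in Flt3 and the lineage-primed genes had 0. Inside the genes, HSC peaks numbered 3 in the stem and multipotent class, 1 in Kit and 2 in Flt3, against 1 in the lineage-primed class, in Il6ra. Gene-end and internal peaks of MPP replicate 1 numbered 8 in the 3 stem and multipotent genes and 10 in the 6 lineage-primed genes. In MPP replicate 2 they numbered 6 and 9. The mean per gene was thus higher in the stem and multipotent class in both MPP libraries, and this rests on Flt3. Flt3 held 5 of the 8 peaks in MPP replicate 1 and 5 of the 6 in MPP replicate 2. Kit held 3 and 1, and Tek 0. In the lineage-primed class, Il6ra held 6 of the 10 and 5 of the 9. Per 100 kb of gene, the stem and multipotent class had 1.04 gene-end and internal peaks in HSC, against 0.691 in the lineage-primed class. In MPP replicate 1 these were 2.78 and 6.91, and in MPP replicate 2 they were 2.09 and 6.22, with the 136 kb of Tek counted and holding no peak.

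The receptor peaks formed 61 sites, of which 6 were called in every library, 22 in both MPP libraries and not HSC, 23 in MPP replicate 1 alone and 8 in MPP replicate 2 alone. Of the last 2 sites, both at Kit, 1 was shared by HSC and MPP replicate 1 and 1 was found in HSC alone. The 6 common sites were internal in Flt3, at 2 places, and in Il6ra, and distal near Csf3r and, at 2 places, near Epor. Of the 8 HSC peaks, 7 overlapped a peak of MPP replicate 1 (87.5%, exact binomial interval 47.3 to 99.7) and 6 a peak of MPP replicate 2 (75.0%, 34.9 to 96.8), against 70.8% and 76.1% of all HSC peaks. Of the MPP peaks at receptor genes, 13.5% (5.59 to 25.8) in replicate 1 and 16.7% (6.37 to 32.8) in replicate 2 had an HSC counterpart, against 9.75% and 15.9% of all MPP peaks. Between the MPP libraries, 28 of 52 receptor peaks of replicate 1 (53.8%, 39.5 to 67.8) and 28 of 36 of replicate 2 (77.8%, 60.8 to 89.9) were shared. Over all peaks these shares were 44.9% and 68.1%, each inside the interval of the receptor share.

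Scaled to the HSC background, most receptor peaks of MPP replicate 1 fell below the smallest pileup called in HSC, and most of MPP replicate 2 lay above it. Of the 45 replicate 1 peaks with no HSC counterpart, 6 scaled to 5 fragments or more, the lowest pileup called in HSC, and 4 of the 7 with a counterpart did. Of the 30 replicate 2 peaks with no counterpart, 29 reached it, as did all 6 with one. This limit is the floor of the HSC list, held by 58 of its 4047 peaks. The scaled values also have wide counting intervals, such as 3.80 to 12.6 for the Kit start peak in MPP replicate 2. The start peaks scaled to 7.04 and 7.34 fragments at Kit, 7.28 and 9.75 at Flt3, and 6.85 and 11.1 at Il6ra in MPP replicates 1 and 2. The median HSC peak had 9 fragments and the tenth percentile was 7, so both Kit values lay between these. Flt3 and Il6ra lay above the median in replicate 2. In replicate 1 Flt3 lay between the tenth percentile and the median, and Il6ra lay below the tenth percentile. The gene-end peak of Csf2rb scaled to 4.64, below the smallest HSC pileup, in MPP replicate 1 and to 8.05 in MPP replicate 2. That at the far end of Il6ra scaled to 5.73 and 7.31. The Il7r start peak, in MPP replicate 2 alone, scaled to 5.02. The part of depth in the missing HSC peaks was not tested.

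**Figure D4:**
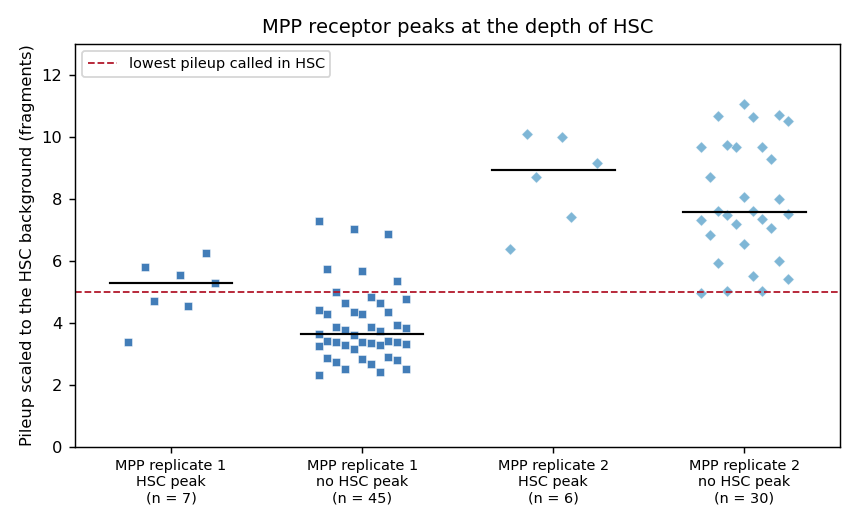
Pileup of each MPP peak at the receptor genes after scaling to the HSC background (vertical axis, fragments), for peaks with and without an overlapping HSC peak, by MPP library. Bars are medians, 5.29 and 3.65 in MPP replicate 1 and 8.94 and 7.56 in MPP replicate 2, and the dashed line is the lowest pileup called in HSC, 5 fragments.

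The rest of the pathway was described through 90 other genes in 4 lists by their gene-end peaks. Of 36 other cytokine and growth factor receptors, 2 had such a peak in HSC, and 12 had one in each MPP library. These shares are 5.56% in HSC (exact binomial interval 0.68 to 18.7) and 33.3% in each MPP library (18.6 to 51.0). They are near those of all genes given above, which lie inside the intervals. Kdr, a receptor for vascular endothelial growth factor, was marked in all 3 libraries, at 6.03-fold in HSC and at 5.78-fold and 6.10-fold in the MPP libraries. The other HSC-marked receptor was Crlf2, a chain of the receptor for thymic stromal lymphopoietin, named after its values were seen. Il21r, Il18r1 and Il2rg, receptor chains of lymphoid cytokines, had gene-end peaks in the MPP libraries alone, with folds of 4.85 and 6.51, 6.20 and 5.56, and 3.88 and 5.02 in replicates 1 and 2. The replicate 1 peak at Il18r1 also lies at an end of Il1rl1.

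The shares over all genes that go with the next 3 lists are again 7.97% in HSC and 40% and 35.1% in MPP replicates 1 and 2. Brackets give each list's share with its exact binomial interval. Of 15 ligand genes, HSC marked 0 (0%, 0 to 21.8) and MPP replicate 1 marked 6 (40.0%, 16.3 to 67.7). MPP replicate 2 marked 2 (13.3%, 1.66 to 40.5). The share of all genes lay inside the interval in each library. Csf1, the ligand of Csf1r, had folds of 4.36 and 6.08 in the MPP libraries, and Il6, the ligand of Il6ra, had 6.15 and 4.81. Of 21 kinases and signal transducers, HSC marked 3 (14.3%, 3.05 to 36.3) and MPP replicate 1 marked 14 (66.7%, 43.0 to 85.4). MPP replicate 2 marked 11 (52.4%, 29.8 to 74.3). The share of all genes lay inside the interval in HSC and MPP replicate 2, and below it in MPP replicate 1. Jak1, the kinase used by the interleukin 6 and interleukin 7 receptors among others, was marked in all 3 libraries, at 5.61-fold in HSC and at 4.92-fold and 7.26-fold in the MPP libraries. Shc1, an adaptor that links receptors to RAS, was also marked in all 3, with folds of 5.14, 5.19 and 6.23, through peaks that also lie at Cks1b or Pygo2. The other HSC-marked gene was Stat3, the main STAT factor of interleukin 6 and G-CSF signals, named after its values were seen and marked in MPP replicate 2 as well. Pik3r1, a regulatory subunit of PI3 kinase, and Fyn, a SRC family kinase, were marked in the MPP libraries alone, Pik3r1 at 4.97-fold and 8.21-fold, and Fyn at 4.41-fold and 6.93-fold. Of 18 inhibitor genes, HSC marked 0 (0%, 0 to 18.5) and MPP replicate 1 marked 7 (38.9%, 17.3 to 64.3). MPP replicate 2 marked 8 (44.4%, 21.5 to 69.2). Each interval again held the share of all genes. Pias1, an inhibitor of STAT factors, had folds of 6.72 and 8.60 in MPP replicates 1 and 2. Dok1, an adaptor that dampens kinase signals, had 4.09 and 5.33 through peaks also at Loxl3. Socs3, a feedback inhibitor of interleukin 6 signals, had 3.73 and 4.68.

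Among the 36 other receptors, likeness was counted as the same yes or no answer for gene-end, internal and distal peaks in each library, 9 answers in all. Tek had 1 such gene, Lepr, which also had 0 peaks. Csf1r had 4, of which Pdgfrb differed by 1 peak in all and Il2ra by 3. Pdgfrb is the neighbour of Csf1r, and their 50 kb windows share peaks. Csf2rb had 1, Il2rg, which differed by 3 peaks, and Epor had 2, Csf2ra and Lifr, which differed from it by 11 and 18 peaks, while Kit, Flt3, Csf3r, Il7r and Il6ra had 0.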

How the data were processed

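The submitters' processing notes give the build as mm10. They list MACS2 2.1.4 and Bowtie2 2.3.4.1 beside cutadapt 1.9.1 and Trim Galore 0.4.2. Settings, duplicate treatment and any control library are not given in the sources drawn on here. The authors deposited 1 peak list per library with no header line, so each library was called on its own. In these lists the authors' deposited fold is the ratio of pileup plus 1 to local background plus 1 at the summit. Deposited −log10 p and q values of the authors entered unaltered. The authors' deposited score, 10 times −log10 q, was not used. Pileup and background were solved from fold and p, with whole pileups (tolerance 0.001 in −log10 p) at 99.98% of peaks or more in each library. The procedure was tested on simulated data. Read totals are not in the files.

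Gene positions and promoters came from RefSeq tables of GRCm38.p6, with 90 of 90 list genes matched. A gene's strand came from the promoter table, which holds 7 of the 9 members, and no genome sequence was used. Overlap meant at least 1 bp. Scaling multiplied the pileup above local background by the ratio of library backgrounds and added the HSC background. All members were named. From each list up to 4 genes marked in all 3 libraries (by HSC fold), 3 in both MPP libraries only (by the lower rank) and 2 in HSC only were named. 1 gene that this rule selects is not reported here. The members and lists were chosen with earlier results of these data known. Alternatives were a stricter q, MPP lists held to HSC length, other windows, flanks and overlaps, and leaving out each MPP library. The labels do not say whether the MPP libraries came from separate pools of mice. Python 3.11.15, pandas 2.3.3 and scipy 1.17.1 were used.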

Additional observations from a re-analysis of the deposited data

How the results depend on the processing

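With q at or below 1e-05, receptor peaks numbered 2 in HSC (in Flt3 and near Csf3r) and 27 in MPP replicate 1, and the 4 lists had 0, 25 and 20 marked genes in HSC, MPP replicate 1 and MPP replicate 2, while Kit, Flt3, Csf2rb and Il6ra kept gene-end peaks in both MPP libraries and Il7r lost its own. With each MPP list held to its 4047 peaks of highest fold, replicate 1 had 8 receptor peaks, with Kit, Flt3 and Il6ra marked, and a class ratio of 3.33, and replicate 2 had 2 receptor peaks, both in Flt3, with 1 at a gene end and 1 gene marked. The lists then had 4 and 6 marked genes, and 37.5% and 50.0% of the receptor peaks had an HSC counterpart. The replicate 2 class ratio could not be computed there, since the lineage-primed genes had no peak. A gene-end window of 5 kb gave 1 gene-end peak in 1 member in HSC (Il6ra), 13 peaks in 7 members in MPP replicate 1 and 12 in 8 in MPP replicate 2, and 10, 61 and 56 marked list genes. Shares over all genes were not computed for the stricter q, the shortened MPP lists or the 5 kb window. The counts of marked genes under these settings thus have no background beside them and are not results about the receptors or lists. A flank of 20 kb left 5 HSC and 31 MPP replicate 1 peaks and turned the replicate 1 class ratio to 1.1, and a flank of 100 kb gave 79 replicate 1 peaks and an HSC ratio of 1.0. Peaks kept only where the receptor was a nearest gene numbered 5, 19 and 16. Counting Flt3 as lineage-primed gave class ratios of 1.17, 0.214 and 0.10, and counting per kb gave 1.27, 0.514 and 0.362. The peak over the 250 bases before the RefSeq start, an alternative chosen after seeing the data, gave 0, 4 and 4 of 7 members, with Csf3r in MPP replicate 1, against 7.12%, 33% and 32.2% of all promoters. The causes were not tested. The other 102 values for these results stayed within 1.5 times the reported value or within its interval, including those for the remaining libraries when MPP replicate 1 or 2 was left out, which repeat the values above. No paired analysis was possible because HSC has 1 library, and replicate numbers were not taken as pairs of HSC and MPP libraries.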

Other observations

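Some receptor peaks of high rank were seen in only 1 MPP library. The peak of MPP replicate 1 at 7.16 kb beyond the far end of Flt3, nearest to Urad, had a fold of 7.08 from 27 fragments (17.8 to 39.3), a rank of 93.4%, and no counterpart in replicate 2 or in HSC. The internal Flt3 peak of MPP replicate 2 at 11.3 kb from the start had a fold of 6.87 from 18 fragments (10.7 to 28.4), a rank of 74.5%, and none in replicate 1, the deeper library, or in HSC.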
